A study of Mus musculus with 14 samples.

Results

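The axon guidance ligands and receptors described here are the 69 autosomal protein-coding genes, of 20665 in the RefSeq annotation of mm10, whose symbols begin with Sema, Plxn, Nrp1, Nrp2, Epha, Ephb, Efna, Efnb, Slit1 to Slit3, Robo, Ntn and a digit, Ntng or Unc5. The rule uses symbols alone, although the families themselves were picked with earlier results of these data known. They comprise 20 semaphorins, 7 plexins, 2 neuropilins, 7 ephrins, 14 Eph receptors, 3 Slits, 4 Robos, 6 netrins and 4 Unc5 receptors. The symbol rule also takes in 2 genes outside these families, Unc50, which encodes a Golgi membrane protein, and Unc5cl, an Unc5c-like gene. Neither had a peak within 10 kb of an end in any library. The question was where the Polycomb mark H3K27me3 and the Polycomb proteins Suz12 and Ring1b were called at these genes, and how the calls compared between genotypes and between treatments.

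Chromatin immunoprecipitation with sequencing (ChIP-seq) was carried out on mouse cells labelled PDGF neural stem cells, which the series design calls mouse DIPG cells, after diffuse intrinsic pontine glioma, a brainstem tumour of children. The cells carried wild-type histone H3 (genotype H3WT) or histone H3.3 with the K27M substitution (genotype K27M), in which methionine takes the place of the lysine that bears the mark. Cells of both genotypes were grown in neural stem cell medium with epidermal and basic fibroblast growth factors and received either the solvent DMSO or EPZ6438 (EPZ), an inhibitor of Ezh2, at 3 µM for 12 days. Of 14 samples, 12 had a peak list: 2 H3K27me3 libraries for every pairing of genotype and treatment (H3WT DMSO, H3WT EPZ, K27M DMSO and K27M EPZ), and, from DMSO cells of each genotype, 1 library of Suz12 and 1 of Ring1b. The 2 IgG control libraries of H3WT cells in DMSO were not analysed here. The labels do not say whether the lines are single clones or whether each replicate was a culture of its own. The p-values therefore reflect the spread among these libraries and nothing more, and that spread may be technical.

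Growing axons and migrating neural cells are steered by secreted or membrane-bound cues that bind receptors on the cell surface. Semaphorins signal through plexins, with neuropilins as co-receptors for secreted class 3 semaphorins, ephrins bind Eph receptor tyrosine kinases, Slits bind Robos, and netrins bind Unc5 receptors when they repel. Polycomb complex PRC2, of which Ezh2 is the catalytic subunit and Suz12 a core subunit, trimethylates lysine 27 of histone H3, and PRC1, through Ring1b, ubiquitylates histone H2A. Both complexes are known for keeping developmental genes silent, often at gene starts rich in CpG dinucleotides.

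To show the gene starts behind the main patterns, the reference sequence of 5 of them is given from the RefSeq promoter table of GRCm38.p6, 5′ to 3′ on the gene's strand, from 250 bases before to 50 bases after the start, with every CpG in capitals. Efna5 (chr17:62881268-62881567, minus strand) was under H3K27me3, Suz12 and Ring1b peaks in both genotypes in DMSO. Epha7 (chr4:28812881-28813180, plus strand) was at least partly under all 3 as well, except in 1 K27M library of H3K27me3. Epha8 (chr4:136956767-136957066, minus strand) was under H3K27me3 and Suz12 peaks without Ring1b. Sema3c (chr5:17574566-17574865, plus strand) was under Ring1b peaks in both genotypes and under an H3K27me3 peak in H3WT alone. Sema4f (chr6:82939720-82940019, minus strand) was under H3K27me3 peaks alone.
Efna5: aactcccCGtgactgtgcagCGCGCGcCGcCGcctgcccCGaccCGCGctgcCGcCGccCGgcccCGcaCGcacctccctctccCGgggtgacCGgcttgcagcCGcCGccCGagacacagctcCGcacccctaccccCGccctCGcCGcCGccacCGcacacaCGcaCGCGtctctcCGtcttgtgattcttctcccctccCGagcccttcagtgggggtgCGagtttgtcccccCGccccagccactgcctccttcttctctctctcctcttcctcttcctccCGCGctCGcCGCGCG
Epha7: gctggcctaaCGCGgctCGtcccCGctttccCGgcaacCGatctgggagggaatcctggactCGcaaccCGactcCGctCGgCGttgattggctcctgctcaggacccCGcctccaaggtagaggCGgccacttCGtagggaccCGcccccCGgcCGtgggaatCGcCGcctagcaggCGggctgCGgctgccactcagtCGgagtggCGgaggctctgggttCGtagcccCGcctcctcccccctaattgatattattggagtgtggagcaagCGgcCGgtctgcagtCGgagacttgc
Epha8: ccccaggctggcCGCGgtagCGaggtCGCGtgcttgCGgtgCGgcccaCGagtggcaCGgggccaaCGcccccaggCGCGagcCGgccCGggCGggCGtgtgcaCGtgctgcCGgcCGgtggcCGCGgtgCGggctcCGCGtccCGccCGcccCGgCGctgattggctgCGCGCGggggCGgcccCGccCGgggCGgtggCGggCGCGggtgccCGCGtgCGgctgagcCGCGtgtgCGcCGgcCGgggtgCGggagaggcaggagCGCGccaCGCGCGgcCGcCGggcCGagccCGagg
Sema3c: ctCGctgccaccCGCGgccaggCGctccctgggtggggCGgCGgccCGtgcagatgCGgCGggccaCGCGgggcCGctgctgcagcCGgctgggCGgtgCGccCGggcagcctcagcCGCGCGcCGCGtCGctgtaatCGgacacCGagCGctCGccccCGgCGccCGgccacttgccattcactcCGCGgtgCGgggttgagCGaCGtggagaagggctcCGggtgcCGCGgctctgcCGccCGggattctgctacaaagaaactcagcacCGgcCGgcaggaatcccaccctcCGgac
Sema4f: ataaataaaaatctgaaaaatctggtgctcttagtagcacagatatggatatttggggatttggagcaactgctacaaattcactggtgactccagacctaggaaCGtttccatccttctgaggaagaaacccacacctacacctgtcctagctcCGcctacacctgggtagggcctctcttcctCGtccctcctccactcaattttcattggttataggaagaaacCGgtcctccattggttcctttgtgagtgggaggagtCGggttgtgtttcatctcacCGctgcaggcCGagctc

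The motif counted was CG, which reads the same on both strands, and 95.0% of 16457 promoters of autosomal protein-coding genes hold at least 1. The Epha8 promoter holds 56, a number that 0.249% of these promoters reach. That of Sema3c holds 42, a number reached by 3.83%, and that of Efna5 holds 38, a number reached by 6.40%. The Epha7 promoter holds 28, which 19.2% reach, and the Sema4f promoter holds 7, which 65.5% reach. All 300 bases of the Efna5 promoter lay under a peak in each of the 8 DMSO libraries. At Epha7 the 4 H3K27me3 libraries in DMSO (H3WT replicates 1 and 2, then K27M replicates 1 and 2) covered 240, 300, 0 and 300 bases. Suz12 peaks covered 300 of the Epha7 bases in H3WT and 79 in K27M. At Sema3c the H3K27me3 peak of H3WT replicate 1 began 0.205 kb past the gene start, so that 0 of these 300 bases were covered there against 300 in replicate 2. In the 4 EPZ libraries no base of the 5 promoters was under a peak.

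Lists differed widely in length. The 4 H3K27me3 lists in DMSO held 13360 and 59915 peaks in H3WT and 2351 and 17983 in K27M, and covered 43.6, 217, 13.5 and 65.5 Mb. The 4 EPZ lists held 201 to 340 peaks, the Suz12 lists 631 in H3WT and 1252 in K27M, and the Ring1b lists 1754 and 1808. Read depth and peak height are unknown, so a longer list from a deeper library and a wider mark cannot be told apart. Of the marker genes examined as a check of the cell label, none of 12 neural stem and glial progenitor genes had an H3K27me3 peak at an end in both H3WT DMSO libraries, against 5 of 9 neuron genes (Rbfox3, Tubb3, Stmn2, Slc17a6 and Gad2) and 1 of 20 markers of astrocytes and oligodendrocytes, microglia, vessels and fibroblasts (Rgs5). Over all genes the share was 10.6%, so lists this short with counts of 0 or 1 tell little. Peak lists do not measure expression.

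Guidance genes carried H3K27me3 peaks in every DMSO library. A gene was called marked in a library where a peak lay within 1 kb of its start or its end. In H3WT DMSO, 21 of the 69 genes (30.4%) were marked in replicate 1 and 26 (37.7%) in replicate 2, beside 10.7% and 20.8% of all autosomal protein-coding genes. In K27M DMSO, 8 (11.6%) and 19 (27.5%) were marked in replicates 1 and 2, beside 4.62% and 10.0% of all genes. The guidance genes thus had the larger share in each of these 4 lists. No test was made of the difference from all genes.

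**Figure D1:**
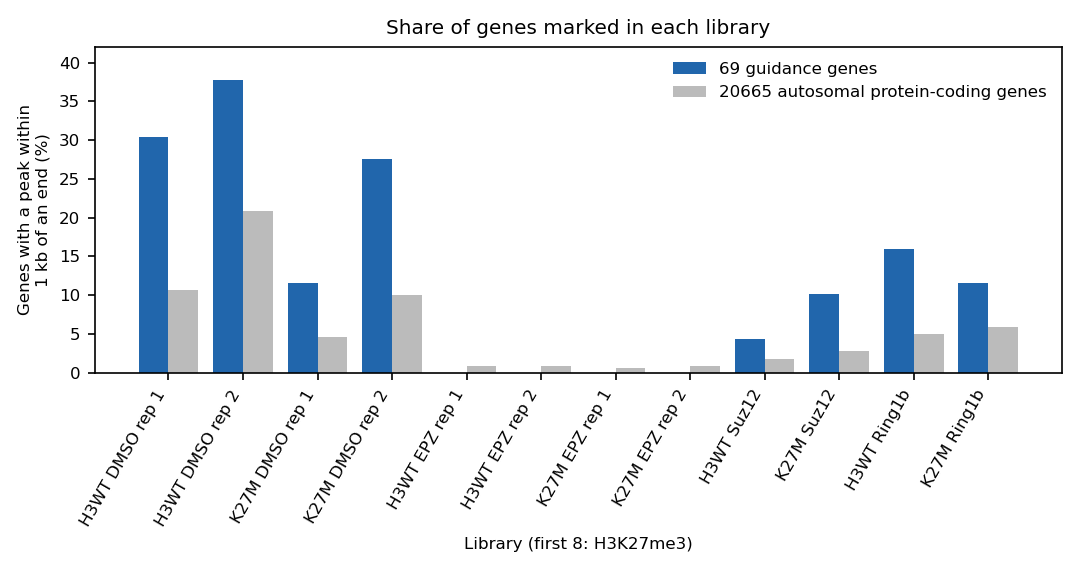
Bars give the percentage of genes with a peak within 1 kb of a gene end in each of the 12 libraries (x axis), for the 69 guidance genes in blue and all 20665 autosomal protein-coding genes in grey. The blue bar is the taller in the 4 DMSO libraries of H3K27me3 and in the Suz12 and Ring1b libraries, and is at 0 in the 4 EPZ libraries.

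In both H3WT DMSO libraries, 20 guidance genes were marked, beside 10.6% of all genes, and these are called H3WT-marked below. They were 9 of 36 ligands and 11 of 31 receptors. By family they were 6 of 20 semaphorins, 1 of 7 plexins, 0 of 2 neuropilins, 2 of 7 ephrins, 5 of 14 Eph receptors, 1 of 3 Slits, 2 of 4 Robos, 0 of 6 netrins and 3 of 4 Unc5 receptors. A count of 0 among so few genes limits little. Strand was known for 17 of the 20, and 16 of these had the peaks at the gene start. Sema6b had them at its far end alone, under a peak shared with the end of Lrg1, so the 2 genes cannot be told apart there. Epha10 shared its end peaks with Maneal in all 4 H3K27me3 libraries in DMSO, so these 2 genes cannot be told apart either. Sema3f with Gnat1 and Sema4f with M1ap shared a peak in H3WT replicate 2 alone.

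The value given for each gene below is its covered length, the number of kb under peaks in the windows of 10 kb around the gene start and end, for H3WT replicates 1 and 2 and K27M replicates 1 and 2 in DMSO, in that order. It is at most 40 kb, or less for short genes, and was 0 kb in all 4 EPZ libraries for every one of the 69 genes. Over the 20 H3WT-marked genes its median was 5.04, 13.0, 1.01 and 5.42 kb, beside 6, 13.1, 0 and 5.95 kb over all 2187 H3WT-marked genes. Among the retained genes defined next, the medians were 11.6, 16.5, 3.37 and 11.9 kb at 8 guidance genes and 11.1, 18, 6.18 and 12.5 kb at all 936. The guidance median was the lower in every library but H3WT replicate 1. An H3WT-marked gene is called retained where both K27M DMSO libraries had a peak at an end, partial where 1 had, and lost where neither had. These words name classes of peak lists and not amounts of the mark.

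**Figure D2:**
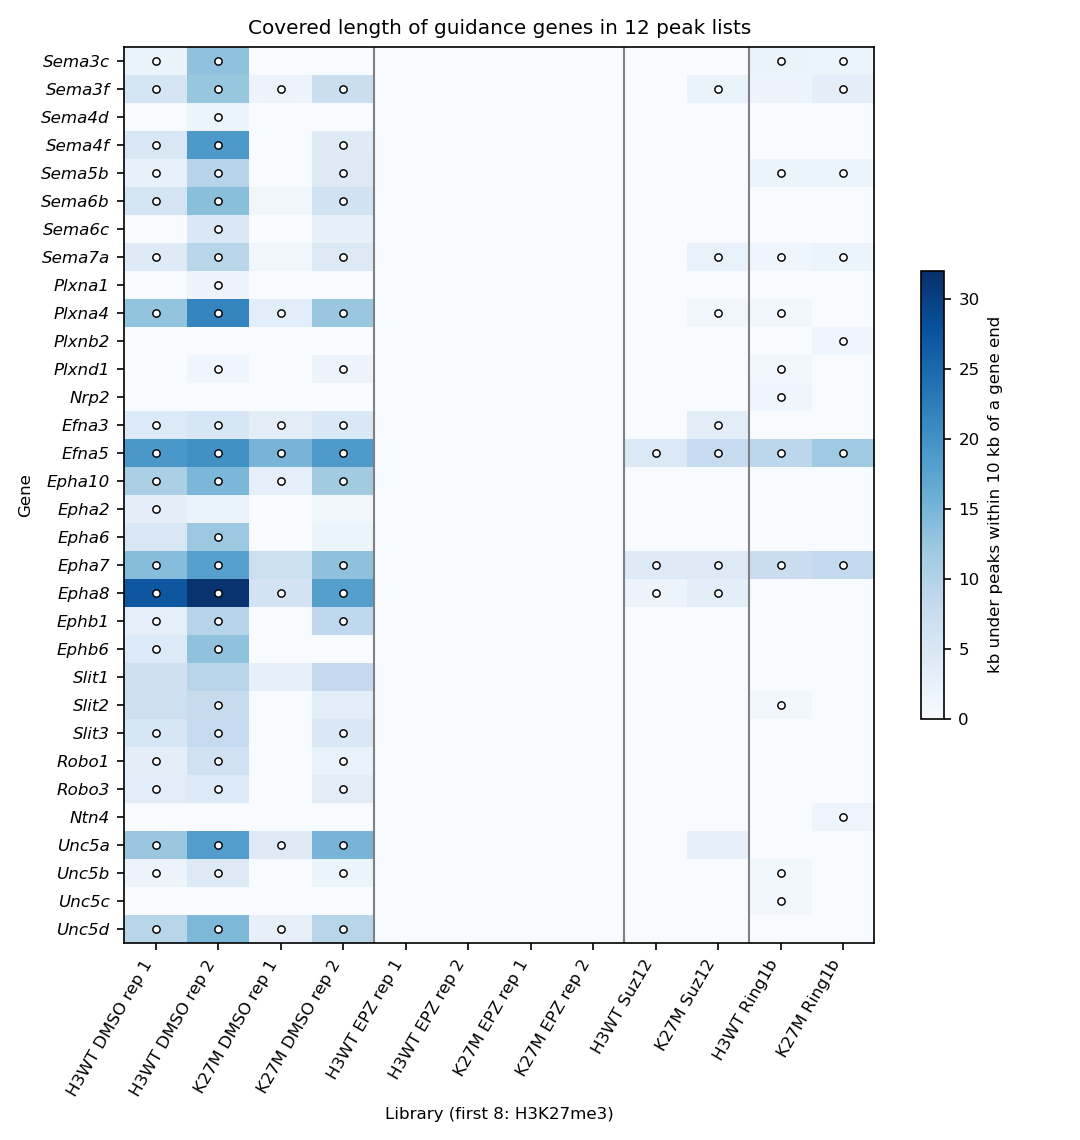
Shading gives the covered length in kb of each gene (rows) in each of the 12 libraries (columns), for the 31 guidance genes marked in at least 1 library and for Slit1, with white circles where a peak lay within 1 kb of a gene end. Efna5 and Epha7 have shading in all 8 DMSO columns, and the 4 EPZ columns are empty.

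Among ligands, the ephrins showed the steadiest marks. Efna5, a GPI-anchored ephrin-A that directs topographic maps in the visual system, had a covered length of 19.2, 20, 15.1 and 18.8 kb. These were 19.6 ± 0.584 kb (SD, n = 2) in H3WT and 16.9 ± 2.67 kb (SD, n = 2) in K27M, with both K27M libraries below both H3WT libraries. Its end peaks all lay at the gene start (gene at chr17:62602957-62881317), and the peak over the start was 10.1, 30, 10.6 and 19.7 kb wide. Efna3, another ephrin-A (chr3:89313899-89322939), had narrow peaks of nearly even width, with a covered length of 4.29, 5.22, 3.27 and 4.52 kb. Its H3WT and K27M values overlapped. Both ephrins were retained. The neighbouring ephrin-A genes Efna1 (chr3:89271730-89280951) and Efna4 (chr3:89333393-89338028) had no peak within 10 kb of an end in any of the 12 libraries, nor had Efna2, Efnb2 and Efnb3.

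Of the 6 H3WT-marked semaphorins, 1 was retained, 4 were partial and 1 was lost. Sema3f, a secreted class 3 semaphorin that repels axons through neuropilin 2, was retained, with a covered length of 5.30, 12.6, 1.87 and 7.08 kb. Sema3c, also of class 3, was lost, with 2 and 13.1 kb in H3WT and 0 kb in both K27M libraries. In K27M replicate 2 the nearest H3K27me3 peak lay 173 kb from an end of Sema3c. The 4 partial semaphorins are membrane-bound, and all 4 had a peak at an end in K27M replicate 2 alone. Sema7a, the GPI-anchored semaphorin, had 3.96, 9.31, 1 and 4.1 kb, and Sema6b had 5.58, 13.6, 1.02 and 6.18 kb. The class 4 semaphorin Sema4f had 4.87, 18.9, 0 and 3.9 kb. Sema5b, a class 5 semaphorin with thrombospondin repeats, had 2.33, 9.43, 0 and 4.08 kb. Of the semaphorins that were not H3WT-marked, Sema4d and Sema6c were marked in H3WT replicate 2 alone, and 12 were marked in no library.

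All 3 Slit genes had H3K27me3 peaks inside the gene in both H3WT DMSO libraries. Slit3, a secreted repellent read by Robo receptors, was the one H3WT-marked Slit, and was partial with a covered length of 5.22, 7.96, 0 and 4.66 kb. Slit1 was marked in no library, although its covered length was 6.71, 9.36, 2.60 and 8.03 kb: its nearest peaks lay 2.03, 1.71, 3.3 and 1.97 kb from an end, outside the window of 1 kb. Within the whole Slit1 gene (chr19:41597824-41747275), 27.5, 54.5, 12.2 and 27.9 kb lay under peaks. The 12.2 kb in K27M replicate 1 was the highest of the 69 genes in that library. Slit2 had 6.76, 7.85, 0 and 3.45 kb of covered length but an end peak in H3WT replicate 2 alone. Of the 6 netrins, none was marked for H3K27me3 at an end in any library. Inside Ntng1, 14.8 kb lay under peaks in H3WT replicate 2 and 2.53 kb in K27M replicate 2, with 0 kb in replicate 1 of both genotypes.

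Among receptors, Epha8 had the widest cover in both H3WT libraries, while in both K27M libraries the ligand Efna5 exceeded it. Epha8, an Eph receptor of the A class (chr4:136929419-136956859), was retained, with a covered length of 27.2, 31.5, 5.87 and 18.1 kb. Both H3WT libraries exceeded both K27M libraries, with 29.4 ± 3.06 kb (SD, n = 2) against 12.0 ± 8.63 kb (SD, n = 2). Within 1 kb of an end, the peaks of H3WT lay at both its start and its far end, and those of K27M at its start alone. A further peak of K27M replicate 2 lay 18.78 to 20.09 kb past the start, within 10 kb of the far end. Epha10, an Eph receptor whose kinase domain is thought inactive, was also retained, with 10.7, 14.7, 2.76 and 11.5 kb, and its genotypes overlapped. The end peaks of Epha10 were shared with Maneal. Epha7 (chr4:28813066-28967503) had 13.8, 17.9, 6.95 and 13.2 kb, with both H3WT libraries above both K27M libraries. It counted as partial only because the peaks of K27M replicate 1 lay past the window of 1 kb at its start.

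Other Eph receptors had narrower marks. Ephb1, which acts in retinal axon guidance at the optic chiasm, was partial, with a covered length of 2.79, 9.71, 0 and 8.53 kb. Ephb6, a receptor without kinase activity, was lost, with 4.33 and 13.0 kb in H3WT and 0 kb in both K27M libraries. Epha2 and Epha6 were each marked in 1 H3WT library, and the other 7 Eph receptors were marked in no library.

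**Figure D3:**
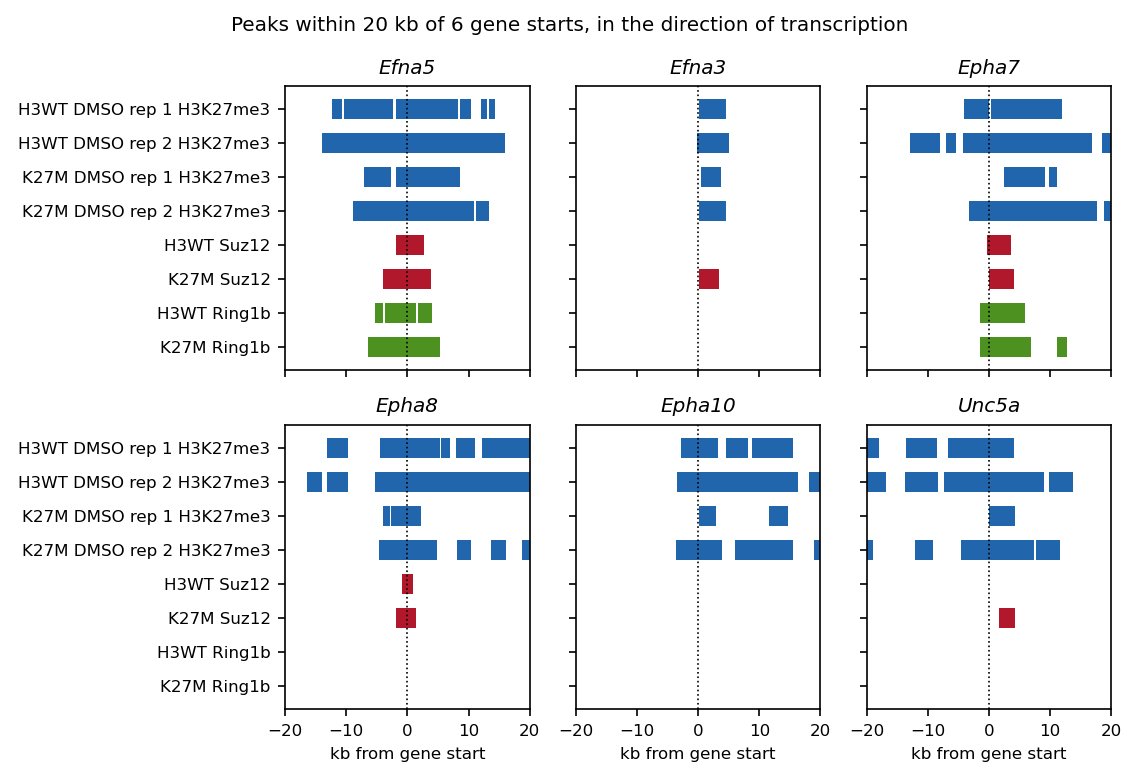
Bars mark the peaks of the 8 DMSO libraries (rows) within 20 kb of the starts of 6 guidance genes, in kb along the direction of transcription, for H3K27me3 in blue, Suz12 in red and Ring1b in green. At Epha7 the K27M replicate 1 peaks begin downstream of the start, and Epha10 has no Suz12 or Ring1b peak.

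Plexins, the signalling receptors for semaphorins, had 1 H3WT-marked member. Plxna4, which pairs with neuropilins to read class 3 semaphorins, was retained, with a covered length of 12.8, 21.6, 3.46 and 12.4 kb. Its 2 K27M values lay below both H3WT values. Over its whole length of 444 kb, 51.9, 130.0, 1.87 and 35.4 kb lay under peaks. In both H3WT libraries and in K27M replicate 2 no other of the 69 genes had more, while in K27M replicate 1 the value was below that of Slit1. Plxnd1 had a narrow peak at its start in replicate 2 of each genotype (1.35 kb in H3WT and 1.77 kb in K27M). Neither neuropilin, the co-receptor that binds the cue, was marked for H3K27me3.

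Unc5 receptors, which turn netrin into a repellent, were marked in 3 of 4 cases. Unc5a (chr13:54945151-55006018) had a covered length of 12.4, 18.3, 4.16 and 15.1 kb and Unc5d 9.36, 14.5, 2.53 and 9.26 kb. Both were retained. For Unc5d both K27M libraries lay below both H3WT libraries, and for Unc5a the genotypes overlapped. Unc5b, which also acts in blood vessels, was partial with narrower marks of 1.76, 4.16, 0 and 1.93 kb. Unc5c had no H3K27me3 peak within 10 kb of an end.

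Robo receptors were partial where marked. Robo1 had a covered length of 3.22, 6.43, 0 and 2.17 kb. Robo3, known for midline crossing of commissural axons, had 3.69, 4.37, 0 and 3.56 kb. Its neighbour Robo4, an endothelial Robo on the same chromosome (chr9:37401902-37414023, beside Robo3 at chr9:37416045-37433436), had no peak within 10 kb of an end in any library. Robo2 had none at its ends either, but peaks inside the gene covered 1 kb in H3WT replicate 1 and 78.6 kb in replicate 2.

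Between genotypes in DMSO, 8 of the 20 H3WT-marked genes were retained (beside 42.8% of all H3WT-marked genes), 10 were partial (beside 38.4%) and 2 were lost (beside 18.8%). Retained genes were 3 ligands and 5 receptors, and each role had 5 partial genes and 1 lost gene. All 10 partial genes had their peak in K27M replicate 2, as had all 839 partial genes of the genome, so the shorter of the 2 K27M lists set which genes counted as retained. Without K27M replicate 1, 18 genes would have been retained. Without K27M replicate 2, 12 would have been lost, and without H3WT replicate 1, 7 would have been. None of the 69 guidance genes was marked in both K27M libraries and neither H3WT library, beside 0.0145% of all genes, so a count of 0 of 69 tells little. In both K27M DMSO libraries 8 were marked, beside 4.62% of all genes.

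Every one of the 20 H3WT-marked genes had a lower covered length in K27M than in the H3WT library of the same replicate number, beside 89.5% of all H3WT-marked genes. Choosing genes by their H3WT peaks favours high H3WT values, and the K27M list was the shorter in each replicate, so little can be read from this. Both K27M values lay below both H3WT values in 11 of the 20 genes, beside 50.9% of all H3WT-marked genes. These 11 were Sema3c, Sema4f, Plxna4, Efna5, Epha7, Epha8, Ephb6, Slit3, Robo1, Robo3 and Unc5d. Here too the genes were chosen by their H3WT peaks. Over the genome, K27M replicate 2 covered 65.5 Mb and H3WT replicate 1 covered 43.6 Mb. An exact permutation test of 2 libraries against 2 cannot give a p below 0.333, so no test of the genotype was made. The part of list length in these values was not tested.

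**Figure D4:**
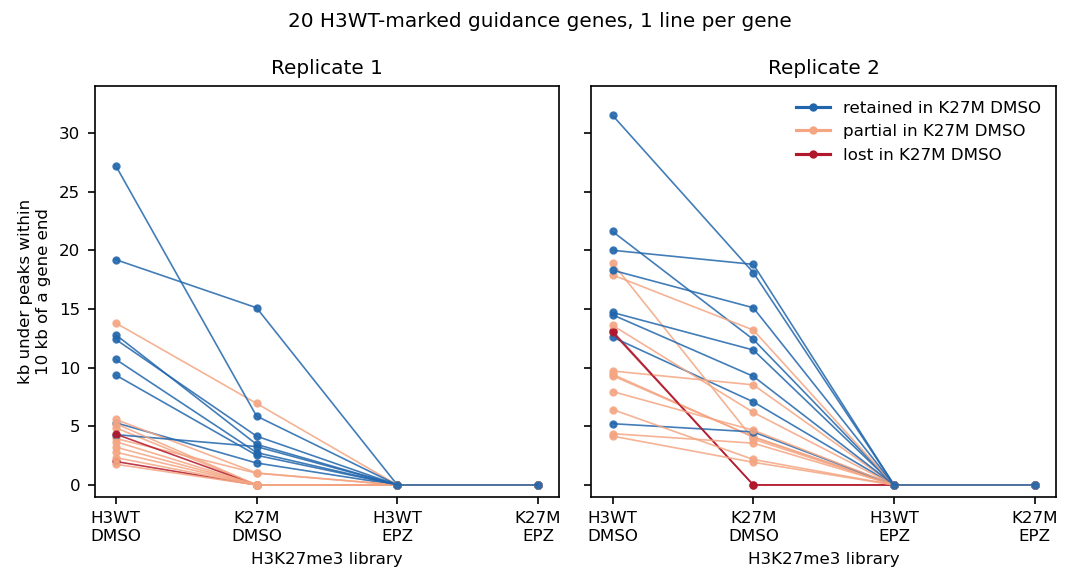
Each line joins the covered length (y axis, kb) of 1 of the 20 H3WT-marked guidance genes across the 4 H3K27me3 libraries (x axis: DMSO in H3WT and K27M, then EPZ in H3WT and K27M) of replicate 1 (left) or replicate 2 (right), coloured by class in K27M DMSO. All lines reach 0 kb in both EPZ libraries, and the 2 lost genes, Sema3c and Ephb6, are at 0 kb in K27M DMSO.

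After EPZ6438 treatment, no guidance gene was marked in any of the 4 H3K27me3 libraries. This was 0 of 69 genes in each, beside 0.910% and 0.798% of all genes in H3WT EPZ and 0.532% and 0.881% in K27M EPZ. Of the 20 H3WT-marked genes 0 kept a peak in both H3WT EPZ libraries, beside 7.41% of all H3WT-marked genes. Of the 8 genes marked in both K27M DMSO libraries 0 kept one in both K27M EPZ libraries, beside 11.2% of all such genes. With shares this low over all genes, counts of 0 among so few guidance genes tell little. With lists of 201 to 340 peaks, H3K27me3 at these genes was not detectable by the deposited calls, which does not show that it was absent.

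Covered length was compared between the 4 EPZ and the 4 DMSO libraries with a two-sided exact permutation test in all 8592 autosomal genes with cover, among them 38 guidance genes. All 38 entered through cover in DMSO, since every guidance gene was at 0 kb in EPZ. In 12 of the 38 all EPZ values lay below all DMSO values, beside 15.8% of the genes tested, which for these genes says only that all 4 DMSO libraries had cover. Nothing about guidance genes as a group is read from this count. These were Sema3f, Sema6b, Sema7a, Plxna4, Efna3, Efna5, Epha10, Epha7, Epha8, Slit1, Unc5a and Unc5d. Their means in DMSO ranged from 4.32 kb at Efna3 to 20.7 kb at Epha8, against 0 kb in EPZ. Each had an exact p of 0.0286, the smallest that 4 against 4 libraries can give, and a Benjamini-Hochberg adjusted p of 0.181. No gene passed an adjusted p of 0.05 (0% of 8592), while 1354 had an unadjusted exact permutation p under 0.05. The other 26 guidance genes tested had 0 kb in K27M DMSO replicate 1, and without that library 24 of the 38 had all EPZ values below all DMSO values.

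Suz12 peaks were called at 3 guidance genes in H3WT (beside 1.79% of all genes) and at 7 in K27M (beside 2.81%). All 7 were H3WT-marked, as were nearly all genes with a Suz12 peak (571 of 581 in K27M and 368 of 369 in H3WT). Efna5, Epha7 and Epha8 had a Suz12 peak in both genotypes, beside 1.35% of all genes, and Sema3f, Sema7a, Plxna4 and Efna3 in K27M alone. Among the 20 H3WT-marked genes these counts of 3 and 7 stand beside 16.8% and 26.1% of all H3WT-marked genes. Suz12 covered 4.49 kb at Efna5 in H3WT and 7.91 kb in K27M, 4 kb at Epha7 in both, and 1.76 and 3.15 kb at Epha8. Efna3 had 0 and 3.36 kb. With 1 library per genotype there is no replicate check, and the K27M list was the longer (1252 peaks against 631).

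Ring1b peaks were called at 11 guidance genes in H3WT (beside 4.96% of all genes) and at 8 in K27M (beside 5.82%). Both genotypes had one at Sema3c, Sema5b, Sema7a, Efna5 and Epha7, beside 3.93% of all genes. In H3WT alone they lay at Plxna4, Plxnd1, Nrp2, Slit2, Unc5b and Unc5c, and in K27M alone at Sema3f, Plxnb2 and Ntn4. Sema3f also had 1.86 kb of Ring1b in H3WT, 4.4 kb from an end and so outside the window of 1 kb. Among the H3WT-marked genes, 7 had Ring1b in H3WT (beside 23.6% of all such genes) and 6 in K27M (beside 25.8%). Ring1b covered 8.95 kb at Efna5 in H3WT and 11.8 kb in K27M, and 7.33 and 8.34 kb at Epha7. Within 10 kb of the ends of the other guidance genes it covered no more than the 3.24 kb at Sema3f in K27M. Sema3c, which had no H3K27me3 peak in K27M, had 2.08 kb of Ring1b in H3WT and 1.66 kb in K27M.

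At 4 guidance genes a Ring1b peak was called with no H3K27me3 peak at an end in any library. They were 4 of 42 guidance genes without such a mark, beside 4.16% of all genes without one. Each peak was at the gene start: 1.48 kb at Plxnb2, a receptor for class 4 semaphorins, and 1.60 kb at the netrin gene Ntn4, both in K27M, and 1.27 kb at Nrp2 and 1.07 kb at Unc5c, both in H3WT. The Plxnb2 peak also met an end of Dennd6b. Each of the 4 was called in 1 genotype, with 1 library behind it. At Ntn1 (1 and 1.2 kb) and Ntng2 (1.75 and 1.41 kb) Ring1b peaks lay within 10 kb of an end in both genotypes, outside the window of 1 kb.

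The 20 H3WT-marked genes thus fell into several combinations. Efna5 and Epha7 had Suz12 and Ring1b in both genotypes. Efna3 and Epha8 had Suz12 and no Ring1b. Sema3f had both proteins at an end in K27M alone. Sema7a had Ring1b in both genotypes and Suz12 in K27M alone. Plxna4 had Suz12 in K27M alone and Ring1b in H3WT alone, so no genotype had both there. Sema3c, Sema5b and Unc5b had Ring1b without Suz12. For 10 genes neither protein was called at an end: Sema4f, Sema6b, Epha10, Ephb1, Ephb6, Slit3, Robo1, Robo3, Unc5a and Unc5d. The share of all H3WT-marked genes with neither was not counted. Each Suz12 or Ring1b library had a peak at only 16.8% to 26.1% of them, so nothing particular to guidance genes is read from this. Among the 10, mean H3K27me3 cover over 4 DMSO libraries was 9.92 kb at Epha10 and 12.5 kb at Unc5a. Unc5a had 2.52 kb of Suz12 in K27M within 10 kb of an end.

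The promoter table held 60 of the 69 genes. The median number of CpG in 300 bases was 28 at 17 H3WT-marked guidance genes (range 7 to 56) and 19 at 43 that were not H3WT-marked (range 2 to 37). All 16457 promoters had a median of 14, and the 1609 promoters of H3WT-marked genes one of 16. Retained guidance genes had a median of 37 over 5 promoters, which is the value of Unc5a, and partial or lost ones 27.5 over 12. At the 14 guidance genes with a Suz12 or Ring1b peak in any library the number was 22 to 56, with a median of 29. At the 33 with no peak at an end in any library the median was 17. These are descriptions of the sequences, made with no test. For 11 of the 60 genes, among them Ephb6, Robo1 and Unc5a, the promoter in the table lies over 1 kb from the gene start used for the marks. The distance is 4260 bp at Unc5a and 635631 bp at Robo1, so the medians above include promoters away from the marked starts.

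The wider guidance pathway was examined with 2 further lists. Over all genes 10.6% were H3WT-marked, and of those 42.8% were retained, 38.4% partial and 18.8% lost. Of 52 other cues, receptors and adhesion partners, 23 were H3WT-marked, with 11 retained, 8 partial and 4 lost, and for neither genotype did any keep a peak in both of its EPZ libraries (0 genes). Among those with the widest cover were Cntn2 (22.9, 24.9, 10.5 and 18.1 kb), an axonal adhesion molecule, the neurotrophin receptor Ngfr, the trophic factor Gdnf, and Reln and Shh, secreted cues of migration and patterning. Reln had 11.1, 15.5, 11.7 and 16.2 kb and Shh 12.7, 14.2, 11.5 and 14.2 kb, so that at both the genotypes overlapped. Of 61 intracellular effectors, the proteins that carry the signal from these receptors to the cytoskeleton, 9 were H3WT-marked, with 3 retained, 5 partial and 1 lost, and 0 had a peak in both EPZ libraries. The retained effectors were the kinase Pak1, the exchange factor Kalrn and Dpysl2, a mediator of semaphorin 3A signalling. Pak1 had 7.12, 20.8, 11.3 and 17.6 kb, with both K27M values inside the H3WT range.

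Counted over the 12 libraries, 38 of the 69 genes had no peak at an end in any, and 26 had none within 10 kb. The same counts were not made over all genes. For H3K27me3 alone, 42 of the 69 had no end peak in any library, beside 16304 of all 20665 genes. The 38 held 12 semaphorins, 3 plexins, Nrp1, 5 ephrins, 7 Eph receptors, Slit1, 2 Robos, 5 netrins and the 2 genes outside the families. Counting peaks anywhere in the gene or within 1 kb of it, 26 genes had H3K27me3 in both H3WT DMSO libraries, beside 13.9% of all genes. The 6 added by that count were Plxna2, Epha3, Epha6, Slit1, Slit2 and Robo2. For Slit2 14.1, 37.7, 0 and 3.45 kb of the gene lay under peaks, for Epha3 6.43, 18.5, 0 and 7.05 kb, and for Plxna2 3.76, 7.76, 0 and 4.27 kb. Slit1 was the one gene of the 6 with peaks inside the gene in all 4 DMSO libraries.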

How the data were processed

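H3K27me3, Suz12 and Ring1b ChIP-seq peak lists of 12 libraries were analysed, and groups and replicate numbers came from the sample labels. Per the submitters' processing notes, Bowtie 1.1.2 and mm10 were used. Which caller made the peaks, with which threshold and control, is not given in the sources used here. The authors deposited 1 list per library, so replicates are separate lists. Each deposited list gives chromosome, start and end of its peaks, and its score column was 0 throughout, so peaks have no height. The 100144 deposited peaks were at least 1001 bp wide. A peak shows where the caller passed its threshold, not how much mark was present, and with unknown read depth no counting interval could be given.

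Peaks of a library that touched or overlapped were merged. Gene intervals came from the NCBI RefSeq table of GRCm38.p6, whose chromosomes are those of mm10, and strand and promoters from the RefSeq promoter table. Both gene ends were used, since the gene table gives no strand. A mark needed an overlap of at least 1 bp with the window of 1 kb around an end, and covered length used windows of 10 kb. The exact permutation test took the difference of mean covered length over all 70 relabellings, two-sided, and p-values were adjusted by Benjamini-Hochberg over 8592 genes. It was checked on simulated data. Named genes were those marked in both libraries of an H3K27me3 group or in a Suz12 or Ring1b library, with up to 6 of each further list by mean cover in DMSO. A gene that this rule takes is not reported here. A few genes outside this rule (Slit1, Robo4, neighbouring ephrins and genes with peaks inside alone) were named after their values were seen. Pak3 (not autosomal) and Pak5 (no match) dropped out of the effector list of 63. The members and lists were chosen with earlier results of these data known. Alternatives were windows of 0 and 5 kb, gene starts alone, whole genes, peaks of at least 3 kb, an overlap of 500 bp, either replicate, each library left out, and a replicate block. Python 3.11.15, NumPy 2.4.6, SciPy 1.17.1 and Matplotlib 3.10.9 were used.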

Additional observations from a re-analysis of the deposited data

How the results depend on the processing

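Of 118 alternative values, 97 kept the direction and the size or side of the threshold of the reported one. Those kept include the counts of gained genes and of genes marked in EPZ, which were 0 in every setting. The share of values kept therefore says little about the other results. H3WT-marked genes numbered 20, and 12 where the gene end itself had to lie in the peak (window of 0 kb). Leaving out replicates gave 21 to 26. Retained genes numbered 8, and 2 with the window of 0 kb (Efna5 and Epha8), 5 with gene starts alone, where strand is known for 60 genes, 4 with peaks of at least 3 kb, 19 where either replicate sufficed, and 8 to 19 with replicates left out. Lost genes numbered 2, and 8 where either replicate sufficed and 2 to 13 with replicates left out. With peaks of at least 3 kb the lost genes were Robo1 and Robo3, and 0 were shared with the reported ones. Suz12 genes in K27M numbered 7, and 3 with the window of 0 kb and 4 with peaks of at least 3 kb. Ring1b genes in H3WT numbered 11, and 7 and 2 in those settings, and in K27M 8, and 5 and 2. The count of genes with all EPZ below all DMSO values was 12, and 12 to 24 with each library left out. No alternative gave a guidance gene marked in both EPZ libraries of a genotype. The cause of these changes was not tested, apart from the fewer peaks or libraries that a setting leaves.

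Under the replicate block, which relabels only within the same genotype and replicate number, 0 guidance genes had an exact p under 0.05 and the smallest exact permutation p was 0.125, the smallest that this block allows. The labels link replicates by a number alone and do not say whether those of 1 number share a batch, which was not tested. Differences between replicates 2 and 1 across 8592 genes were correlated between groups. The value was r = 0.35 for H3WT DMSO with K27M DMSO and r = -0.45 for H3WT EPZ with K27M EPZ. Between the other pairs of groups r ran from -0.07 to 0.031. Genes are not independent replicates.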

Other observations

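Guidance genes on chromosome X are outside the autosomal rule and had H3K27me3 in DMSO mainly in H3WT replicate 2, the longest list. Efnb1, a transmembrane ephrin, had a covered length of 3.63 and 21.7 kb in H3WT replicates 1 and 2 and of 0 and 7.08 kb in K27M. Plxna3, a receptor for class 3 semaphorins, had 0 and 21.6 kb in H3WT and 0 and 1.12 kb in K27M. Plxnb3 had 0 and 11.7 kb in H3WT and 0 kb in both K27M libraries. All 3 were at 0 kb in the 4 EPZ libraries. Efnb1 also had 1.29 kb of Ring1b in K27M.

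Slit3 held much of its H3K27me3 away from its ends. Within Slit3, a gene of 587 kb, 18.1 and 118 kb lay under peaks in H3WT DMSO and 0 and 19.9 kb in K27M DMSO, against 5.22 and 7.96 kb within 10 kb of its ends in H3WT. Slit1 had 2 Suz12 peaks inside the gene in K27M, 2.62 kb in all, and none in H3WT.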
